A study of Mus musculus with 22 samples.

Results

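The neocortex is built in layers, and neurons of each layer can be told by the transcription factors, receptors and peptides they make. The 34 genes described here are markers of those layers: 14 of the upper layers and 20 of the deep layers. They were chosen by gene symbol and measured in biopsies of primary motor cortex (M1) from mice that lack estrogen receptor beta and from wild-type mice. Of the 34 genes, 31 had at least 1 feature in the deposited tables, 13 upper and 18 deep, among 15297 genes in all. Rasgrf2, Nr4a2os and Diap3 were not analysed here.

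The BERKO mice lack estrogen receptor beta, a nuclear receptor for estradiol encoded by Esr2, and the WT mice carry it. All were males on the C57BL/6 background aged 16 to 20 weeks. The series holds a right and a left biopsy, taken by needle, from each of 5 BERKO mice and 6 WT mice, which gives 22 biopsies. From each biopsy 10 ng of total RNA was copied by STRT, a method that marks the 5′ end of every transcript, so that each read tells where a transcript began. A further BERKO sample was left out by the submitters, who called it an outlier. The labels name no allele or construct for the knockout.

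Upper-layer neurons (layers II to IV) mainly connect cortical areas to each other, and many of them arise late in development under factors such as Cux and POU-domain proteins. Deep-layer neurons (layers V and VI) send axons to the spinal cord, brainstem, striatum and thalamus and are specified by factors such as Fezf2, Bcl11b, Tbr1 and Sox5. Motor cortex is known for a thick layer V and a thin layer IV. Several of these genes are also active in other neurons: Bcl11b, Foxp1, Foxp2, Crym, Pcp4, Calb1, Mef2c and Ldb2 are known from striatal neurons too. A needle biopsy takes an unknown share of each layer, and in bulk RNA fewer cells of a layer and less RNA per cell cannot be told apart.

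Because the assay counts transcript starts, 4 genes whose reads came almost wholly from 1 feature are shown with the bases before their annotated start. That feature held 99.5% of reads for Cartpt, all reads for Kitl, 96.0% for Rprm and 96.7% for Pcp4. Each line below holds the 150 bases before the RefSeq start of the gene in build GRCm38.p6, read on the gene's strand. The deposited positions are in mm9 and were not placed against these windows, so the bases shown may not lie just before the start that was read. The Rprm feature is classed as upstream of the gene, and the other 3 as 5′ UTR. Capitals mark matches to the motifs TATAAA (the box where the core machinery binds), GGGCGG (the GC box of Sp factors) and AGGTCA (a core element bound by estrogen and other nuclear receptors) on either strand. None of these motifs overlaps another in the 4 windows except the GC boxes of Kitl, of which 2 share bases.
Cartpt, chr13:99900684-99900833, minus strand: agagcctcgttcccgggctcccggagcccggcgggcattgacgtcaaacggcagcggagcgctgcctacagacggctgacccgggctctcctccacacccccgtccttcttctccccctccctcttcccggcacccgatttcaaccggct
Kitl, chr10:100015671-100015820, plus strand: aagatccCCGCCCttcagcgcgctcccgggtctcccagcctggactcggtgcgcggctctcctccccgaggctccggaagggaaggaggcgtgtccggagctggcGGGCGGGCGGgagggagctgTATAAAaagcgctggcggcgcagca
Rprm, chr2:54085553-54085702, minus strand: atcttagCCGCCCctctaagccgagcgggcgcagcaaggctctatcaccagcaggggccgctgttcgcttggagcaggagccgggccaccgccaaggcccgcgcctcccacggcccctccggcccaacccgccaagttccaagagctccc
Pcp4, chr16:96467456-96467605, plus strand: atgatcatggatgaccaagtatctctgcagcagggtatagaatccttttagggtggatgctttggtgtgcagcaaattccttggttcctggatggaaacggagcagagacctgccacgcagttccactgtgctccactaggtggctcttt

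The Kitl window held 4 matches, the Rprm window 1, and the Cartpt and Pcp4 windows none. RefSeq gave 34 start windows for 24 of the 34 genes. Of these 34 windows, 5 held TATAAA, 16 a GC box and 1 (a start of Mef2c) the receptor motif. Some genes had more than 1 window, and some of these overlap. Counted by gene, 4 of the 24 held TATAAA, 12 a GC box and 1 the receptor motif. Among all 32851 windows of the same length the shares were 7.57%, 28.62% and 8.58%. A match describes letters only, and a window with no match says nothing of which factors act there.

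The depth of the libraries and a few WT biopsies set how far these genes can be read. Total reads ran from 249751 to 2018833 per biopsy, and were lower in BERKO mice (1017873 to 1706160 per mouse) than in most WT mice (1429548 to 2911717). The left biopsy of BERKO mouse 5 was sequenced in 1 lane and the others in 3. On the first principal component of 5993 genes, 3 WT libraries stood apart, at -37.96 (right biopsy of mouse 1), -48.28 (left biopsy of mouse 1) and -40.70 (left biopsy of mouse 2), with the other 19 between -11.14 and 19.7. Results are given with and without these 3 libraries where they matter. The column names carry a code of a letter and a digit, whose meaning the labels do not give. Its letter differs between the genotypes and between the sides, so whatever it stands for cannot be told apart from genotype or side.

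The labelled tissue was checked against its markers. Slc17a7, which loads glutamate into synaptic vesicles in excitatory neurons of the cortex, was read in all 22 libraries, at 71.4 to 264 CPM in the 19 libraries and at 79.7 to 86.4 CPM in the 3 that stood apart. Of the striatal markers, Drd2 had no read in 20 of 22 libraries and Drd1 in 19, while Penk and Ppp1r1b were read in all 22, at 57.1 to 335 CPM and 13.5 to 91.0 CPM in the 19 libraries. The 13 striatal markers in the table, which include the layer genes Foxp1 and Bcl11b, summed to 232, 406 and 530 CPM (lowest, median and highest biopsy) in BERKO and 118, 265.3 and 493.4 CPM in WT. CPM, the level used throughout, scales the gene reads of each library to 1 common total, after a TMM correction for differences in composition. It counts transcript starts and is not divided by length, so levels of different genes are not ranked against each other.

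Of the 31 genes with features, 24 passed the filter on low counts for the comparison of genotypes, 9 upper and 15 deep. The 7 that did not pass are Cux2, Mdga1, Unc5d, Otof, Tbr1, Foxp2 and Ctgf. The level of each of the 24 genes in every mouse is drawn in the plot of members by genotype.

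**Figure D1:**
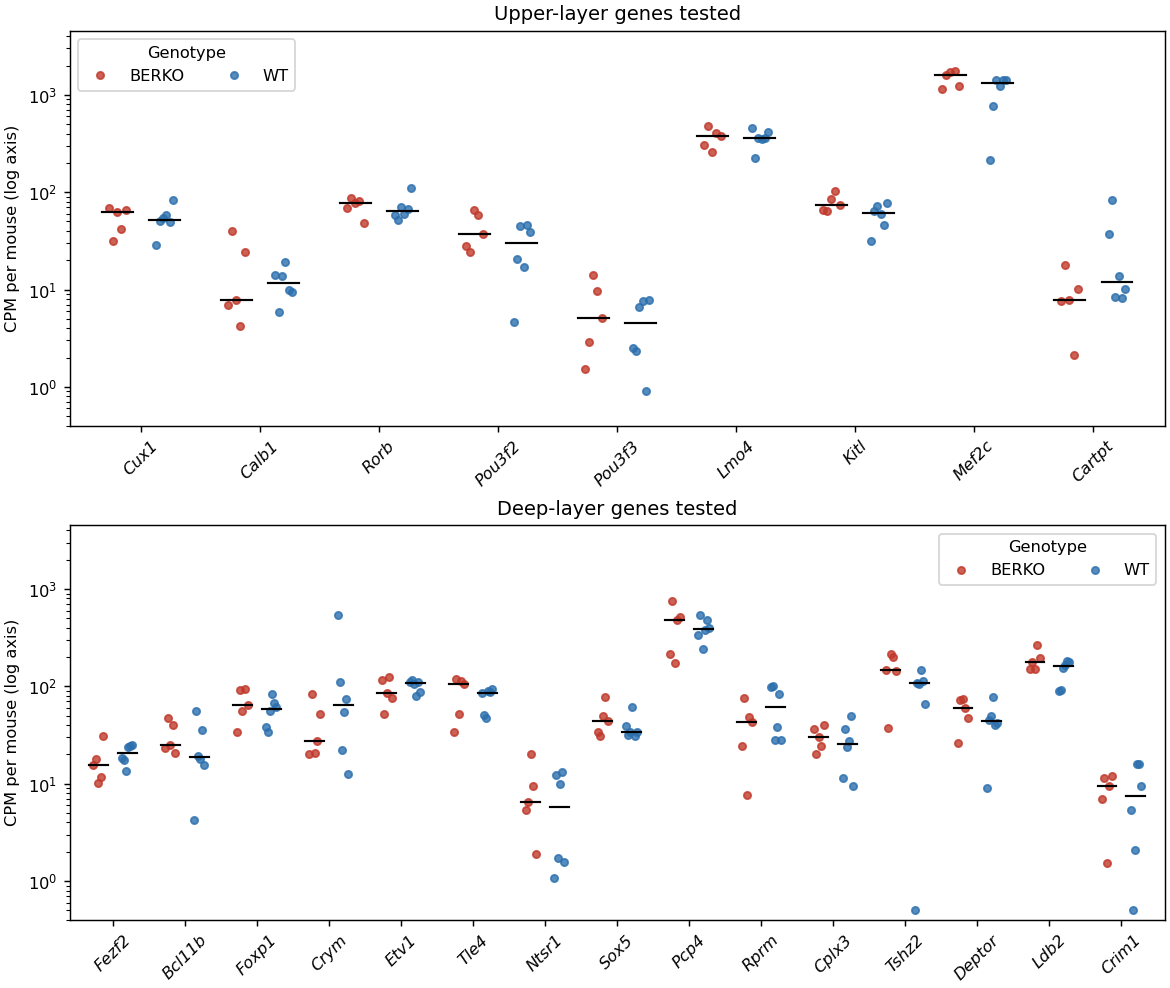
Levels of the 24 layer genes tested, as CPM per mouse with both biopsies summed (log axis, 0 drawn at 0.5); points are mice, BERKO in red to the left of WT in blue, and bars are medians. For every gene the BERKO and WT points overlap. Mef2c, Pou3f2, Bcl11b, Tshz2 and Deptor each have 1 WT mouse far below the rest, and Crym has 1 far above.

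None of the layer genes differed between BERKO and WT mice at an adjusted p below 0.05. With both biopsies of a mouse summed, 0 of 9 upper-layer and 0 of 15 deep-layer genes passed edgeR's quasi-likelihood test, where 0.0776% of all 9025 genes did. At an unadjusted p below 0.05 there was 1 of the 24 genes, Cartpt, against 9.92% of all genes. DESeq2 also called 0 of them and had 1 upper-layer and 2 deep-layer genes below 0.05 unadjusted, among 31 fitted. For none of the 24 genes did the BERKO and WT mice fail to overlap, which held for 1.33% of all genes. The median log2 fold change of BERKO over WT was 0.42 for the upper-layer genes, of which 8 of 9 were positive, and 0.20 for the deep-layer genes, of which 11 of 15 were positive, beside -0.01 for all genes. Without the 3 WT libraries the medians were 0.15 and 0.06, with 5 of 8 and 8 of 14 positive. Leaving out 1 mouse gave upper-layer medians of 0.17 (5 of 9 positive, without BERKO mouse 3) to 0.52 (without BERKO mouse 2). They were 0.23 without BERKO mouse 4, and 0.25, 0.28 and 0.24 without WT mice 1, 3 and 4. The deep-layer medians ran from 0.07 (without BERKO mouse 5) to 0.38 (without BERKO mouse 2), and were 0.13 without BERKO mouse 3, 0.08 without BERKO mouse 6 and 0.11 without WT mouse 1. Scaling by the spike-in RNA moved the median of all genes to 0.19 and the list medians to 0.67 and 0.39.

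**Figure D2:**
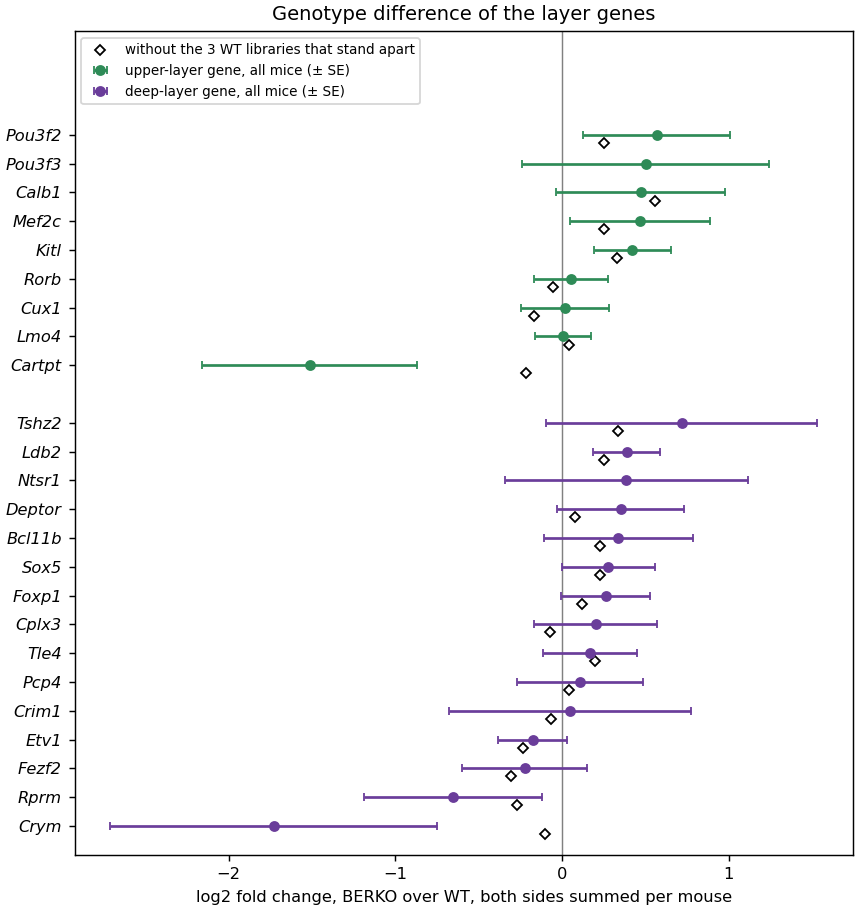
Log2 fold change of BERKO over WT for the 24 layer genes (points with bars: edgeR estimate ± SE from 5 BERKO and 6 WT mice; green upper layer, violet deep layer; open diamonds: the same without the 3 WT libraries that stand apart, where the gene was still tested). Cartpt and Crym lie at -1.51 and -1.73 with all mice and at -0.22 and -0.10 without those libraries.

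Among the upper-layer genes, Cartpt had the smallest p. It encodes the precursor of the CART neuropeptide, and 99.5% of its reads came from a 5′ UTR feature on the minus strand of chromosome 13 at 100670608 (mm9, the build of the deposited positions). BERKO mice 2 to 6 had 7.70, 18.04, 7.74, 2.125 and 10.1 CPM, against a lowest, median and highest WT mouse of 8.16, 12.0 and 83.8 CPM. Of the BERKO mice 3 lay below every WT mouse, and the others lay within the WT range. The log2 fold change was -1.51 ± 0.64 (SE; adjusted p = 0.444 by edgeR). It was -0.74 without WT mouse 2 and -0.22 without the 3 WT libraries. In single biopsies, 2 of those libraries held 87.2 and 241 CPM of Cartpt, where the highest of the other 19 held 31.7.

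Kitl encodes the ligand of the receptor tyrosine kinase Kit. Its reads all came from 1 feature, in the 5′ UTR on the plus strand of chromosome 10 at 99478458. BERKO mice 2 to 6 had 66.2, 63.5, 84.4, 103.1 and 74.2 CPM, against 31.8, 61.6 and 77.9 CPM for the lowest, median and highest WT mouse. All 5 BERKO mice lay above the WT median and 2 lay above every WT mouse. BERKO over WT gave a log2 fold change of 0.42 ± 0.23 (adjusted p = 0.537 by edgeR).

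Pou3f2, a POU-domain transcription factor of upper-layer neurons, had 27.7, 24.5, 65.8, 58.4 and 37.4 CPM in BERKO mice 2 to 6, against 4.65, 29.9 and 45.8 CPM for the lowest, median and highest WT mouse. The groups overlapped widely, and 2 BERKO mice lay above every WT mouse. Its log2 fold change was 0.57 ± 0.44 (adjusted p = 0.696 by edgeR) and 0.25 without the 3 WT libraries, which held 0 to 8.72 CPM in single biopsies where the other 19 held 10.98 to 73.2. More of its reads came from the coding sequence (51.8% from 1 feature) than from the 5′ UTR (21.8%).

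Mef2c encodes a MADS-box transcription factor that governs synapse number in cortical excitatory neurons. It had 1140, 1617, 1700, 1757 and 1242 CPM in BERKO mice 2 to 6, against 215, 1317 and 1435 CPM for the lowest, median and highest WT mouse. In 3 BERKO mice the level was above every WT mouse, and the other 2 lay inside the WT range. This gave a log2 fold change of 0.47 ± 0.42 (adjusted p = 0.757 by edgeR), and 0.25 without the 3 WT libraries. An intronic feature on the plus strand of chromosome 13 at 83663915 gave 75.7% of its reads, so the count mostly follows that start and not the annotated 5′ UTR, which gave 7.92%.

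The other 5 upper-layer genes tested had log2 fold changes of 0.01 to 0.50. Lmo4, a LIM-domain cofactor, averaged 364 ± 85.0 CPM in BERKO mice and 361 ± 77.7 CPM in WT mice (SD, n = 5 and 6). Cux1, a homeodomain factor of layers II to IV, averaged 54.2 ± 16.6 CPM in BERKO mice and 54.1 ± 17.6 CPM in WT mice. Rorb, a nuclear receptor that marks layer IV, averaged 72.5 ± 15.1 CPM in BERKO mice and 70.0 ± 21.5 CPM in WT mice. These averages differed by far less than the SD within a genotype. Calb1, which encodes the calcium-binding protein calbindin, stood at 0.47 ± 0.51 and averaged 16.5 ± 15.1 CPM in BERKO mice and 12.0 ± 4.63 CPM in WT mice, with 2 BERKO mice above every WT mouse and 1 below. Pou3f3, a relative of Pou3f2, stood at 0.50 ± 0.74 and averaged 6.599 ± 5.11 CPM in BERKO mice and 4.66 ± 3.08 CPM in WT mice, and no read of it came from its 5′ UTR or upstream region.

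Among the deep-layer genes, Ldb2, a LIM-domain-binding cofactor, had the smallest p. BERKO mice 2 to 6 had 152.5, 179.6, 150.2, 267.7 and 193.9 CPM, against 90.1, 160.6 and 183.6 CPM for the lowest, median and highest WT mouse. In 3 BERKO mice the level was above the WT median, and in 2 of these above every WT mouse. Its log2 fold change was 0.39 ± 0.20 (adjusted p = 0.525 by edgeR), and 0.25 without the 3 WT libraries. A 5′ UTR feature on the minus strand of chromosome 5 at 45190892 held 77.8% of its reads and had a log2 fold change of 0.20 ± 0.21. A 3′ UTR feature at 44864399 held 11.6% and stood at 0.90 ± 0.38 (adjusted p = 0.374 by edgeR).

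Crym, which encodes mu-crystallin, a thyroid hormone-binding protein of deep-layer neurons, had 20.0, 83.0, 20.9, 27.6 and 52.0 CPM in BERKO mice 2 to 6. The lowest, median and highest WT mouse had 12.6, 64.2 and 537 CPM. The groups overlapped, and WT mouse 1 stood far above all other mice of either genotype. The log2 fold change was -1.73 ± 0.98 (adjusted p = 0.585 by edgeR), -0.42 without WT mouse 1 and -0.10 without the 3 WT libraries.

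Rprm encodes reprimo, known as a mediator of cell-cycle arrest downstream of the tumour suppressor Trp53 and as a marker of deep layers. Its levels were 24.6, 76.5, 7.74, 48.9 and 43.1 CPM in BERKO mice 2 to 6, against 27.9, 60.9 and 102 CPM for the lowest, median and highest WT mouse. In 2 BERKO mice the level was below every WT mouse, and in the other 3 it was within the WT range. For Rprm the log2 fold change was -0.65 ± 0.54 (adjusted p = 0.726 by edgeR), and -0.27 without the 3 WT libraries. Sox5, a transcription factor that times the birth of deep-layer neurons, had 33.9, 31.0, 49.6, 77.6 and 43.7 CPM in BERKO mice 2 to 6, against 31.3, 33.8 and 62.1 CPM for the lowest, median and highest WT mouse. Only BERKO mice 5 and 3 lay outside the WT range, 1 above it and 1 just below it. Its log2 fold change was 0.28 ± 0.28 (adjusted p = 0.782 by edgeR), and -0.14 from the promoter features alone.

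The remaining 11 deep-layer genes tested had log2 fold changes between -0.22 and 0.72. The factors that specify subcerebral neurons lay on either side of zero, Fezf2 at -0.22 ± 0.37 and Bcl11b at 0.34 ± 0.44. With spike-in scaling Fezf2 was at 0.03. Markers of corticothalamic neurons were Tle4, a Groucho-family corepressor, at 0.17 ± 0.28, and Ntsr1, a neurotensin receptor, at 0.39 ± 0.73. For layer V neurons, Etv1, an ETS-domain factor, stood at -0.18 ± 0.21, Deptor, an inhibitor of mTOR, at 0.35 ± 0.38, Pcp4, a calmodulin-binding peptide, at 0.11 ± 0.38, and Crim1, a transmembrane regulator of BMP signalling, at 0.05 ± 0.73. Foxp1, a forkhead factor, stood at 0.26 ± 0.27, and Cplx3, a complexin of subplate neurons, at 0.20 ± 0.37. Each of these values lay within 1 standard error of zero. Tshz2, a teashirt-family zinc-finger factor, had the largest value, 0.72 ± 0.81, and 0.34 without the 3 WT libraries. Without them Foxp1 was at 0.12, Deptor at 0.08, Pcp4 at 0.04, and Cplx3 and Crim1 each at -0.07. Ntsr1 and Crim1 were read at low levels, averaging 8.7 and 8.3 CPM in BERKO mice and 6.6 and 8.1 CPM in WT mice.

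The 7 genes below the filter had few reads. Foxp2, a forkhead factor of layer VI, had 22 reads in 4 of 10 BERKO biopsies, against 1 read in 1 of 12 WT biopsies, and fitted without the filter it had an unadjusted p of 0.00892 and an adjusted p of 0.330 by edgeR. Tbr1, the T-box factor of layer VI, had 45 reads in 5 of 10 BERKO biopsies and 36 reads in 8 of 12 WT biopsies. Cux2, the second Cux factor, had 26 reads in 7 BERKO and 44 in 6 WT biopsies. Ctgf, a secreted matricellular protein of the subplate, had 10 reads in 3 BERKO and 14 in 3 WT biopsies. Unc5d, a netrin-family receptor, had 10 reads in 1 BERKO biopsy and 55 in 4 WT biopsies. Otof, which encodes the calcium sensor otoferlin, had 10 reads in 5 BERKO biopsies and 50 in 3 WT biopsies, 41 of the 50 in the left biopsy of WT mouse 2. Mdga1, a membrane-anchored adhesion protein, had no read in 10 BERKO biopsies and 7 in 1 of 12 WT biopsies. A count of 0 allows up to 3 reads, which is 1.58 CPM (before TMM scaling) in the deepest biopsy and 12.6 CPM in the shallowest, so absence of these genes cannot be read from most single biopsies.

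The 3 WT libraries differed from the rest in many of the layer genes, some higher and some lower. Crym had 578, 453 and 235 CPM in the right biopsy of WT mouse 1, the left biopsy of WT mouse 1 and the left biopsy of WT mouse 2, where the other 19 biopsies ran from 7.83 to 120 CPM. Mef2c had 209, 247 and 812 CPM in these, against 760 to 1931 CPM elsewhere. Tshz2 had 0, 0 and 13.3 CPM in these, against 16.5 to 290 CPM elsewhere, and 0 reads allow up to 1.58 and 4.20 CPM (before TMM scaling) in the 2 biopsies of WT mouse 1. Of the 24 genes tested, 1 lay above and 7 below the range of the other 19 in the first of these libraries, 4 above and 6 below in the second, and 5 above and 7 below in the third. As a share that was 33.33%, 41.67% and 50.0%, where 12.86%, 16.21% and 17.39% of all 9025 genes did so. These libraries were singled out by their whole profile, so the counts describe them and test nothing.

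Both lists held genes above and genes below the others in these libraries. Bcl11b was below the others in both biopsies of WT mouse 1 and above them in the left biopsy of WT mouse 2. Pou3f2, Tshz2 and Crym were outside the range of the other 19 in all 3 libraries. The summed level of the other upper-layer markers, a list of 18 genes with 15 in the table, was 268, 463 and 541 CPM in these libraries, against 1434 to 2385 CPM elsewhere. Within that list Lamp5, a membrane protein of upper-layer neurons, had 47.6, 23.2 and 161 CPM, against 624 to 1452 CPM elsewhere. Dkk3 had 129, 276 and 131 CPM, against 573 to 897 CPM elsewhere. Their medians in the other 19 libraries were 1110 and 685 CPM, so the sum mostly follows Lamp5 and Dkk3. The other deep-layer markers summed to 576, 389 and 660 CPM, against 312 to 603 CPM elsewhere. Within that list Col6a1 had 134.5, 8.72 and 1.90 CPM, against 0 to 20.2 CPM elsewhere, so it raised the sum in the right library of WT mouse 1. Oligodendrocyte and myelin markers were below the others in all 3 libraries, at 1958, 3281 and 2850 CPM against 4463 to 20640 CPM. Among hippocampal and choroid plexus markers, Ttr had 478 and 369 CPM in the right and left library of WT mouse 1, and up to 386 CPM elsewhere. The sum of these markers was 515, 419.8 and 177 CPM against 27.7 to 417.4 CPM, so Ttr made up most of it in WT mouse 1. This sum lay above the others in both libraries of that mouse. Those libraries were also below the others for microglial (685, 853 and 974 against 889 to 1523 CPM), endothelial and pericyte (297, 333 and 520 against 369 to 1161 CPM), meningeal (1254, 3365 and 10470 against 3388 to 15750 CPM) and striatal markers (118, 207.7 and 493.4 against 208.1 to 529.9 CPM). The excitatory neuron markers summed to 2881, 3007 and 3962 CPM, inside the range of 2753 to 6724 CPM of the other 19. The sums of the astrocyte and of the interneuron markers were inside their own ranges too, but some single genes were not. Pvalb (39.3, 65.4 and 3.795 CPM against 76.1 to 455) and Npy (255, 394 and 336 against 474 to 1301) were below the others in all 3 libraries. Neurod1 (68.9, 46.5 and 77.8 against 2.78 to 35.1) was above them in all 3. Slc1a2 was below them in the left libraries of WT mice 1 and 2 (670 and 736 against 774 to 1790). Slc17a7, Camk2a and Sst were inside the range in all 3. Of the other excitatory markers, Emx1 was below the range in the left library of WT mouse 1 (0 against 4.33 to 39.6 CPM). Neurod6 was below it in the left library of WT mouse 2 (0 against 20.2 to 102.5 CPM). Both were inside the range in the remaining libraries. Which tissue these biopsies sampled was not tested.

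**Figure D3:**
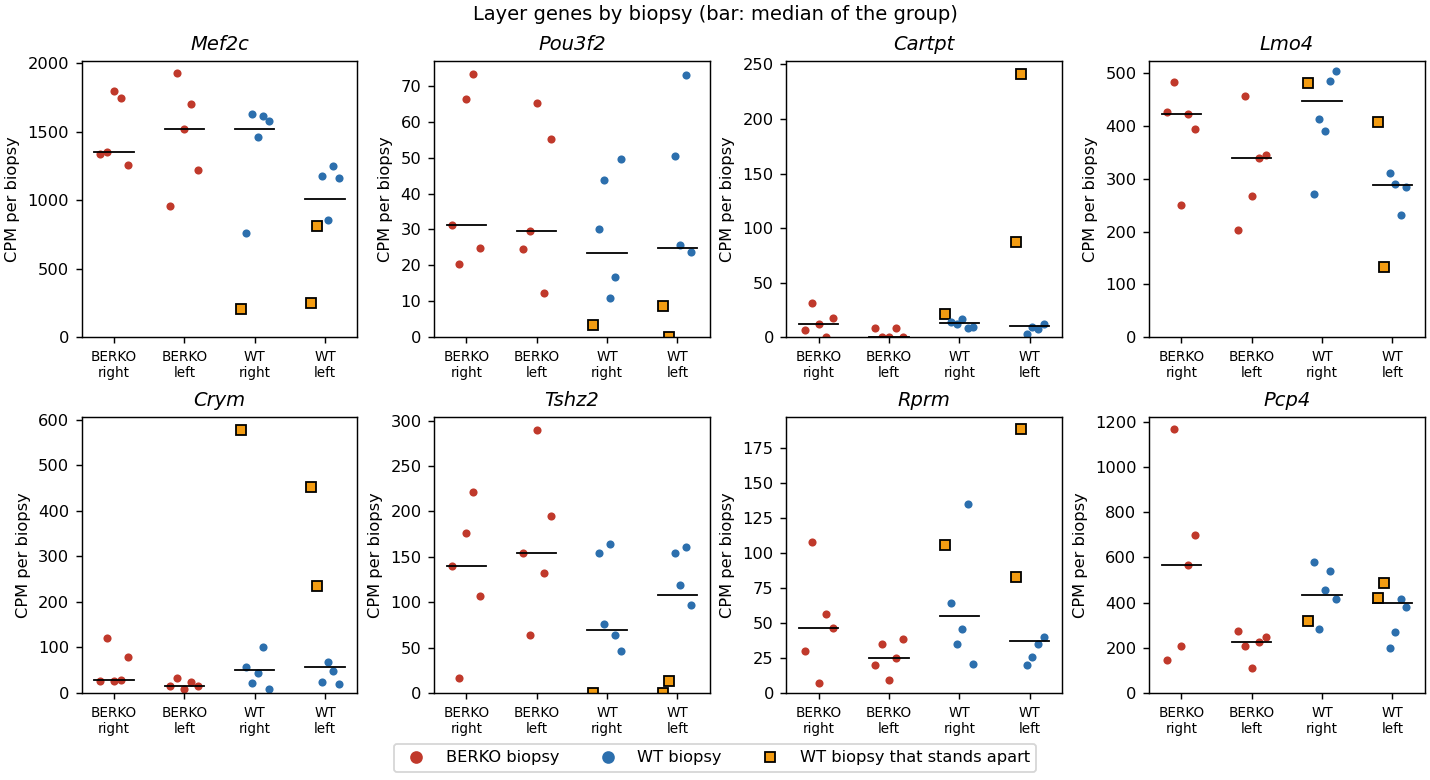
Levels of 8 layer genes in single biopsies (CPM, axes from 0), with BERKO in red, WT in blue and the 3 WT libraries that stand apart as orange squares; bars are group medians. Crym is at 235 to 578 CPM and Tshz2 at 0 to 13.3 CPM in the orange libraries, while for Pcp4 they fall within the range of the other biopsies.

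Within the right biopsies, 0 of 8 upper-layer and 0 of 14 deep-layer genes passed the threshold in the comparison of BERKO with WT (0.065% of 7696 genes did by edgeR), and none had an unadjusted p below 0.05 (8.25% of all genes did). DESeq2 called 0 and had 1 deep-layer gene below 0.05 unadjusted. The medians were 0.18 for the upper-layer and 0.20 for the deep-layer genes, beside -0.01 for all genes. From promoter features alone the deep-layer median was -0.18, with 4 of 9 positive. The 3 smallest p belonged to Pou3f2 (log2 fold change 0.76 ± 0.52, adjusted p = 0.717), Kitl (0.40 ± 0.30, adjusted p = 0.741) and Etv1 (-0.31 ± 0.26, adjusted p = 0.778). Pou3f2 had 31.2, 20.3, 66.3, 73.2 and 24.9 CPM in the right biopsies of BERKO mice 2 to 6, against 3.40, 23.4 and 49.6 CPM for the lowest, median and highest WT right biopsy. The genotypes overlapped, with 2 BERKO right biopsies above all WT ones.

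Within the left biopsies, 0 of 7 upper-layer and 0 of 12 deep-layer genes passed (0% of 6616 genes did), and 3 deep-layer genes, Pcp4, Crym and Rprm, had an unadjusted p below 0.05, all lower in BERKO (6.76% of all genes did). The medians were 0.29 for the upper-layer genes (6 of 7 positive) and 0.07 for the deep-layer genes (7 of 12 positive), beside -0.0008 for all genes. From promoter features alone the deep-layer median was -0.53, with 4 of 9 positive. DESeq2 called 0 and had 2 upper-layer and 4 deep-layer genes below 0.05 unadjusted. Among them was Cartpt, which the filter kept out of the edgeR fit on this side. It stood at -4.21 ± 1.46 (unadjusted p = 0.00403, adjusted p = 0.397 by DESeq2). Its left medians were 0 CPM in BERKO and 10.7 CPM in WT, and the left libraries of WT mice 1 and 2 held 87.2 and 241 CPM. Pcp4, known from layer V neurons, had 273, 206, 110, 224 and 249.5 CPM in the left biopsies of BERKO mice 2 to 6. The lowest, median and highest WT left biopsy had 197, 398 and 486 CPM. All BERKO left biopsies lay below the WT left median, and the 2 groups overlapped between 197 and 273 CPM. Its log2 fold change was -0.75 ± 0.25 (unadjusted p = 0.00508, adjusted p = 0.618 by edgeR), and -0.46 with spike-in scaling.

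Crym had 14.4, 33.0, 8.99, 24.8 and 15.3 CPM in the left biopsies of BERKO mice 2 to 6, against 19.8, 57.6 and 453 CPM for the lowest, median and highest WT left biopsy. In 3 of 5 BERKO left biopsies the level was below every WT left biopsy. The log2 fold change was -2.86 ± 0.92 (unadjusted p = 0.0105, adjusted p = 0.624 by edgeR), and -1.05 without the left libraries of WT mice 1 and 2. Rprm had 20.2, 34.6, 8.99, 24.8 and 38.3 CPM in these BERKO biopsies, against 19.6, 37.4 and 188 CPM for the lowest, median and highest WT left biopsy. Of the BERKO left values 1 lay below every WT one and 4 lay within the WT range, whose upper end was set by the left libraries of WT mice 1 and 2. The log2 fold change was -1.31 ± 0.54 (unadjusted p = 0.0234, adjusted p = 0.693 by edgeR), and -0.20 without the 3 WT libraries.

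Right and left biopsies of the same mouse were then compared, with the mouse as a block. None of 8 upper-layer and 13 deep-layer genes passed (0% of 8308 genes did by edgeR), and 3 had an unadjusted p below 0.05, all higher on the right (5.57% of all genes did). Of the deep-layer genes, 11 of 13 were higher on the right, with a median log2 fold change of right over left of 0.32, and of the upper-layer genes 4 of 8 were, with a median of 0.07, beside 0.05 for all genes, of which 55.86% were positive. The deep-layer median was 0.17 (8 of 13 positive) without WT mouse 2, 0.16 without WT mouse 5 and 0.15 without BERKO mouse 6, and 0.16 (7 of 10 positive) at equal depth. The upper-layer median lay between -0.01 and 0.16 when 1 mouse was left out. Astrocyte markers went the other way, with 10 of 12 lower on the right, a median of -0.39, 9 below 0.05 unadjusted and 0 past the threshold, and meningeal fibroblast markers were lower on the right for 8 of 8, with a median of -0.60, 4 below 0.05 unadjusted and 0 past the threshold. Their part in the values of the layer genes was not tested.

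Lmo4 had the smallest p between the sides. In BERKO mice 2 to 6 it had 425, 483, 251, 422 and 394 CPM on the right and 202, 457, 267, 339.5 and 344.5 CPM on the left. In WT mice it had 271, 447.5 and 504 CPM (lowest, median and highest) on the right and 133, 288 and 407 CPM on the left. The right biopsy was the higher one in 10 of 11 mice, BERKO mouse 4 being the exception, though the ranges of the sides overlapped. The log2 fold change of right over left was 0.50 ± 0.13 (unadjusted p = 0.000519, adjusted p = 0.359 by edgeR). DESeq2 gave 0.49 with an adjusted p of 0.0221, its only call among the layer genes between the sides, where it adjusted p over 1528 of 14126 genes, and the adjusted p over all alternatives ran from 0.0221 to 0.99999.

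Pcp4 was higher on the right in 9 of 11 mice, by 0.62 ± 0.25 (unadjusted p = 0.0243, adjusted p = 0.750 by edgeR), with an adjusted p of 0.0312 where no filter on low counts was used. In BERKO its right biopsies had 148, 1169, 209, 564 and 699 CPM (mice 2 to 6), and its left biopsies 110 to 273 CPM. WT mice had 282, 434.5 and 579 CPM (lowest, median and highest) on the right and 197, 398 and 486 CPM on the left. The right biopsy of BERKO mouse 3 held the highest value of all biopsies. Tle4 was higher on the right in 8 of 11 mice, by 0.53 ± 0.25 (unadjusted p = 0.042, adjusted p = 0.866 by edgeR). Its right biopsies had medians of 107 CPM in BERKO and 80.7 CPM in WT mice, and its left biopsies 74.1 CPM in BERKO and 45.5 CPM in WT mice.

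**Figure D4:**
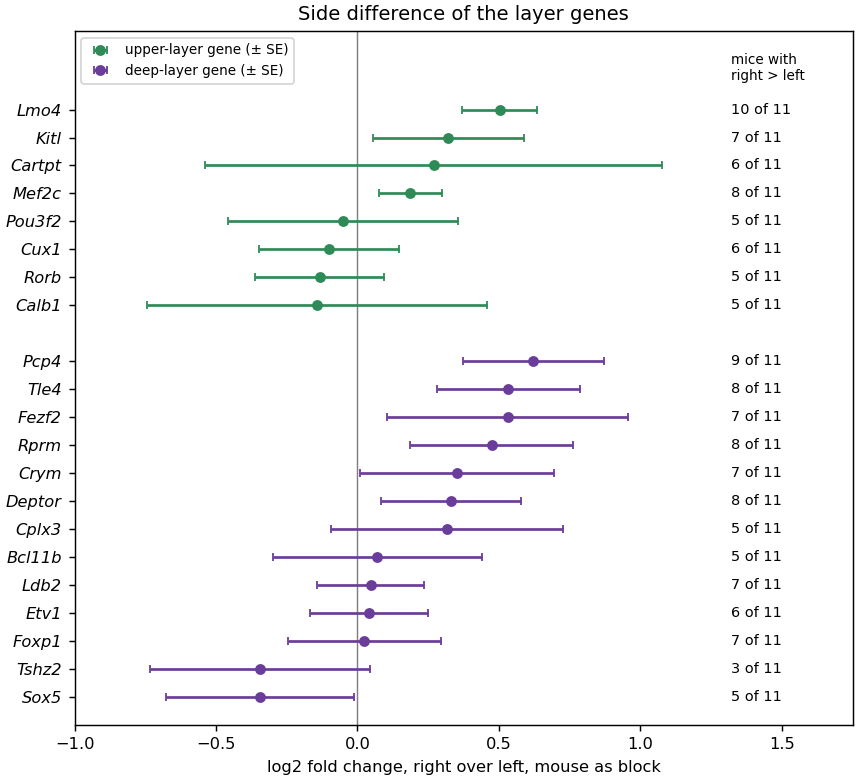
Log2 fold change of right over left for the 21 layer genes tested (edgeR estimate ± SE, mouse as block; green upper layer, violet deep layer), with the number of the 11 mice in which the right biopsy was the higher one. Lmo4 at 0.50 has the smallest standard error for its size, with 10 of 11 mice higher on the right, and 11 of 13 deep-layer genes lie above zero.

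The same model held a term for whether the genotypes differ more on 1 side than on the other. None of 8 upper-layer and 13 deep-layer genes passed (0% of 8308 genes did by edgeR, and DESeq2 called 0), and 1 deep-layer gene, Crym, had an unadjusted p below 0.05 (3.26% of all genes did). Crym was higher on the right in 5 of 5 BERKO mice and in 2 of 6 WT mice. BERKO right biopsies had 26.3, 120, 27.2, 28.2 and 78.0 CPM, set against the BERKO left values above, and WT right biopsies had 7.83, 50.7 and 578 CPM (lowest, median and highest). The difference of the genotype effect, right minus left, was 1.84 ± 0.53 on the log2 scale (unadjusted p = 0.00137, adjusted p = 0.998 by edgeR), and 1.58 without the 3 WT libraries. Next were Pcp4 at 0.85 ± 0.44 and Cartpt at 2.83 ± 1.55, both with an adjusted p of 0.998. Cartpt had 0 reads in 3 of 5 BERKO left biopsies, so its value depends on how zeros are fitted.

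The upper-layer and deep-layer lists were also set against each other within each biopsy. The score is the mean of log2(CPM + 1) over the 13 upper-layer genes minus that over the 18 deep-layer genes, and has no test here. It averaged -0.59 ± 0.24 in BERKO mice and -0.42 ± 0.32 in WT mice (SD, n = 5 and 6). BERKO mice 2 to 6 had -0.80, -0.48, -0.23, -0.79 and -0.65, against -0.99, -0.39 and -0.11 for the lowest, median and highest WT mouse. All 5 BERKO mice lay inside the WT range, and the difference of -0.17 was smaller than the SD within either genotype. Biopsies ran from -1.44 in the right biopsy of BERKO mouse 5 to 0.10 in the left biopsy of BERKO mouse 4, both ends of the range being in BERKO.

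The score gives each gene the same weight, so genes with few reads count as much as Mef2c. When the CPM of each list were summed first, the log2 ratio of upper over deep was higher in BERKO by 0.43, the opposite sign. Mef2c held most of the upper-layer sum in every BERKO biopsy. The summed upper-layer CPM were 1349, 2128 and 2693 (lowest, median and highest biopsy) in BERKO and 862, 1752 and 2410 in WT. The summed deep-layer CPM were 782, 1012 and 2041 in BERKO and 935, 1278 and 1580 in WT. Without the 3 WT libraries the difference in this ratio was 0.24, with WT mouse 1 left out and WT mouse 2 represented by its right biopsy. This last value was computed after the data were seen.

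**Figure D5:**
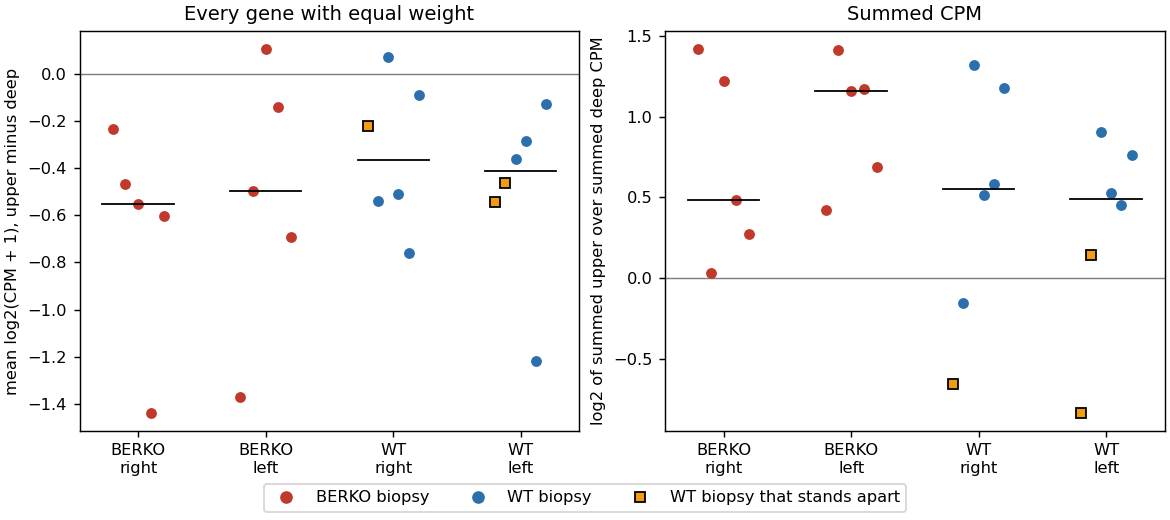
Upper minus deep score by biopsy (left: mean log2(CPM + 1) with each gene weighted equally; right: log2 ratio of summed CPM), with BERKO in red, WT in blue, the 3 WT libraries that stand apart as orange squares and bars for group medians. On the left scale these 3 libraries lie among the others, at -0.55 to -0.22, and on the right scale both libraries of WT mouse 1 are the lowest, at -0.83 and -0.66.

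The layer genes were also compared by the single starts from which they were read. Of 342 features of the layer genes, 51 passed the filter (22 upper and 29 deep), and 0 passed the threshold, beside 0.114% of 13128 features by edgeR. At an unadjusted p below 0.05 there were 3 upper-layer and 3 deep-layer features, against 11.6% of all features. Etv1 was read from several starts on the plus strand of chromosome 12. An upstream feature at 39510097 with 20.4% of reads had a log2 fold change of -0.92 ± 0.37 (adjusted p = 0.345 by edgeR). The largest, a 5′ UTR feature at 39506906 with 26.7%, stood at -0.45 ± 0.43, and another upstream one at 39509845 with 7.88% at -0.83 ± 0.77. An intronic one at 39587635 with 18.9% stood at 0.73 ± 0.55. From promoter features alone Etv1 was at -0.52 ± 0.26 (adjusted p = 0.594 by edgeR). Lmo4 was read from a 5′ UTR feature on the minus strand of chromosome 3 at 143865282, which held 41.6% of its reads in BERKO and 57.8% in WT. A feature in its coding sequence at 143864909 held 43.3% in BERKO and 28.6% in WT. The first had a log2 fold change of -0.49 ± 0.25 and the second of 0.46 ± 0.33, both with adjusted p above the threshold (0.460 and 0.620 by edgeR).

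Coding-sequence and 3′ UTR starts, which include starts inside a transcript, took more of the layer genes' reads in BERKO biopsies (22.4%, 26.5% and 33.8%, lowest, median and highest) than in WT biopsies (13.1%, 20.7% and 31.4%). The same held for all reads, with 14.1% to 20.8% in BERKO and 10.5% to 18.5% in WT. With 5′ UTR and upstream features alone, the medians over the genes tested were 0.27 for 8 upper-layer and -0.13 for 9 deep-layer genes, beside -0.02 for all genes. The deep-layer median thus had the opposite sign when coding-sequence, 3′ UTR and intronic starts were all left out, over 9 genes in place of 15. How this share bears on single layer genes was not tested.

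Several layer genes share sequence with other genes. Of the 34 genes, 9 had a stretch of at least 100 bases at 95% identity or more in a transcript of another gene. Etv1 shares 1453 bases with Gm5454 on the same strand, so its reads may not be separable from those of that gene. Pcp4 shares 245 bases with Igsf5 on the same strand. Sox5 and Tshz2 share 1333 and 5085 bases with antisense transcripts, and the features are listed by strand.

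Other marker lists give the setting of these values. Of 18 other upper-layer markers, 12 were tested between the genotypes and 0 passed, with 9 positive and a median log2 fold change of 0.13. Of 24 other deep-layer markers, 6 were tested and 0 passed, with 2 positive and a median of -0.25. The general excitatory markers had 7 of 9 positive and a median of 0.55, led by Slc17a7 at 0.76 ± 0.18 (adjusted p = 0.126 by edgeR) and Camk2a at 0.55 ± 0.14. Interneuron markers had 2 of 10 positive and a median of -0.39. Astrocyte markers had 12 of 12 positive with a median of 0.27, endothelial and pericyte markers 10 of 10 with 0.47, microglial markers 10 of 12 with 0.32, myelin markers 10 of 11 with 0.30, meningeal fibroblast markers 7 of 8 with 0.56, striatal markers 4 of 6 with 0.30, and hippocampal and choroid plexus markers 1 of 2 with -0.14. None of these genes passed the threshold by edgeR. At an unadjusted p below 0.05 there were 5 astrocyte, 4 microglial, 2 endothelial and 2 meningeal genes, all higher in BERKO, 3 excitatory genes higher and 1 lower, 2 interneuron genes higher and 1 lower, and 1 other deep-layer gene lower. The positive medians of the layer lists thus stood beside positive medians of most other cell-type lists, and the part of the biopsies' makeup in them was not tested.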

How the data were processed

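The authors deposited read counts per 5′ end feature and lane, ratios of counts to spike-in reads, with a table that annotates each feature. Build mm9, Bowtie and TopHat2 2.0.12 were used, per the submitters' processing notes. The deposited ratio enters 1 alternative only. Lanes were summed per biopsy, and features with a single symbol were summed to 15297 genes, which leaves out 5.22% of endogenous reads. The fits used edgeR 4.0.16 (quasi-likelihood, robust, TMM, default filter, two-sided, Benjamini-Hochberg threshold 0.05 over all genes) in R 4.3.3, with the mouse as replicate, and as alternatives DESeq2 1.42.0 and limma 3.58.1. The counts are reads after PCR, so floors cover counting error only. Standard errors are the log2 fold change over the square root of F. The test was tested on simulated data. Members and lists were chosen with earlier results of these data known. Levels of the 24 genes tested are drawn by mouse, and the 7 below the filter are given as reads. Full values follow for members past a threshold, the 4 of each list with the smallest p, and the 3 smallest p per further comparison. Other lists name at most 2 genes by p. Lamp5, Dkk3, Col6a1, Ttr, Pvalb, Npy, Neurod1, Neurod6, Emx1, Slc1a2, Sst, Drd1, Drd2, Penk, Ppp1r1b and the 4 start windows shown were chosen after their values were seen.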

Additional observations from a re-analysis of the deposited data

Results flagged for a closer look

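In 3 of 50 sets examined, a single mouse stood away from the rest of its group. A set is 1 layer gene, or the upper minus deep score, in the mice of 1 genotype. Chance alone gives about 2.5 if the values are normal and the sets independent, which was not tested. Crym was at 537.3 CPM in WT mouse 1, where its gap to the next WT mouse took 0.812 of the range of the 6 mice. Sox5 was at 62.11 CPM in WT mouse 4, with a gap of 0.751 of the range. Rorb was at 111.7 CPM in WT mouse 6, with a gap of 0.692 of the range. The gap that counts as far for 6 mice is 0.625.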

How the results depend on the processing

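Across 703 recomputed values of single layer genes, 668 kept their direction and their side of the threshold, 33 had the opposite sign and 2 passed the threshold that had not, both between the sides. In the comparison of genotypes, 12 of 24 genes kept 1 direction under every alternative that tested them (14 to 21 each), 12 did not, and no layer gene passed under any of them, the smallest adjusted p being 0.1275. The count of all genes past the threshold was 45 with spike-in scaling, 14 with no filter, 34 with DESeq2, 11 with the replicate block, 97 on log2(ratio + 1) and 1 to 18 without 1 mouse. The upper-layer median was 0.05 with no filter, 0.06 with DESeq2, 0.10 with the mouse as a random effect and 0.01 on log2(ratio + 1), where the scale or the genes tested differ, and the deep-layer median was -0.13 from promoter features alone. On the right the count was 3 with spike-in scaling, 17 with no filter, 12 with DESeq2, 0 from promoter features, 1 with the replicate block and 0 to 6 without 1 mouse. On the left it was 22 with no filter, 3 with DESeq2 and 0 to 1 without 1 mouse. Between the sides it was 9 with no filter (1 of them the deep-layer gene Pcp4), 32 with DESeq2 (1 of them the upper-layer gene Lmo4) and 0 to 3 without 1 mouse. Over features it was 139 with no filter, 1 of them an intronic start of Crym, and 8 to 47 without 1 mouse. The difference in score was 0.433 from summed CPM, 0.235 from summed CPM without the 3 WT libraries (added after the data were seen) and -0.282 to -0.105 without 1 mouse.

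Signs were opposite for Sox5 (-0.14), Deptor (-0.13), Tle4 (-0.05) and Lmo4 (-0.26) from promoter features, for Calb1 (-0.16) and Pcp4 (-0.22) with the mouse as a random effect, and for Fezf2 (0.03) with spike-in scaling. They were opposite for Cplx3 (-0.07), Rorb (-0.05), Crim1 (-0.07) and Cux1 (-0.17) without the 3 WT libraries, for Pcp4 (-0.09) and Cux1 (-0.16) with the replicate block, and for Cux1 (-0.01) at equal depth. Without 1 mouse the ranges that crossed zero were -0.13 to 0.71 for Calb1, -0.20 to 0.66 for Ntsr1, -0.19 to 0.31 for Pcp4, -0.01 to 0.23 for Rorb, -0.20 to 0.37 for Crim1, -0.11 to 0.18 for Cux1 and -0.10 to 0.11 for Lmo4. The cause was not tested. The deviations of BERKO and WT mice of the same number correlated by -0.0334 to 0.055 over 5 pairs. In the random-effect fit the correlation of biopsies of the same mouse was itself only 0.053. Values this small can neither show nor exclude a pairing, so the replicate block serves as an alternative only. Depth limits the genes below the filter, and the labels do not say how the mice relate within a genotype.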
